A study of Mus musculus with 12 samples.

Results

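The transcriptional response of WT somatosensory cortex to acute ethanol was examined in 6 of the 12 RNA-Seq libraries of the series. These are the 3 libraries labelled WT and EtOH (library numbers 4, 5 and 14) and the 3 labelled WT and Saline (1, 3 and 13), chosen by their genotype and treatment labels alone. The other 6 libraries came from p53 KO mice with the same treatments (saline 7, 8 and 9, and ethanol 10, 12 and 18). All mice were labelled as male C57BL/6 pups at postnatal day 7. The WT and the p53 KO pups both came from matings of mice heterozygous for the Trp53tm1Tyj allele, so no allele was altered in either WT group. Whether they shared litters is not stated. Both groups received intraperitoneal injections, of ethanol or of saline, and the brains were frozen 8 h after the last one. Each library was 1 RNA sample, and the labels do not say that each sample was a separate mouse, so p-values measure only the spread between these samples. Cortex was collected by laser microdissection in part of the samples and with a hole punch in the rest, and the labels do not say which library came from which.

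The first postnatal weeks are the brain growth spurt of the mouse, when cortical neurons extend axons, form synapses and compete for survival. Ethanol potentiates GABA-A receptors and blocks NMDA receptors, and in this window it is known as a trigger of apoptotic cell death. p53, the transcription factor encoded by Trp53, activates cell cycle arrest and cell death genes after DNA damage and is one candidate mediator of that loss. The comparison asks which transcripts differ 8 h after ethanol where p53 is intact.

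Values are estimated counts summed over the RefSeq transcripts of each gene symbol and scaled by the TMM-normalized library size (normalized CPM, where CPM is the usual depth-scaled count). They are given in the order 1, 3 and 13 for WT saline and 4, 5 and 14 for WT ethanol. Log2 fold changes are ethanol over saline, from the edgeR quasi-likelihood test over all 12 libraries with 3 libraries a group, with a standard error (SE) and a Benjamini-Hochberg adjusted p over all genes tested. Genes are said to have risen or fallen at an adjusted p under 0.30, the level the study used for single genes, and the stricter level of 0.05 is named where it was met.

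Some WT ethanol libraries stood apart from their labels. Xist, the RNA that silences an X chromosome in female cells, was at 1.11, 0.516 and 1.49 in WT saline and at 873, 2.14 and 1765 in WT ethanol, and it was 2.06 or lower in the 6 KO libraries. Ddx3y, Eif2s3y, Uty and Kdm5d, which lie on the Y chromosome, were at 0 in WT ethanol 4 and 14, where a count of 0 allows a level of up to 0.170 and 0.527 (3 counts, counting error only). Their summed level was between 79.95 and 299 in the other 10 libraries. WT ethanol 4 and 14 thus held the sex-linked RNA known from female tissue under a male label, and WT ethanol 5 did not.

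Markers of neighbouring regions differed as well. The 6 thalamic markers summed to 114, 42.8 and 77.2 in WT saline and to 882, 98.6 and 76.3 in WT ethanol, and library 4 was far above the other 5. Ttr, the transthyretin made by choroid plexus, was at 14.6, 2.06 and 109 and 4935, 19.98 and 55.7. The 6 striatal markers summed to 101, 126 and 109 and 122, 462 and 925, and libraries 5 and 14 lay above all 3 saline libraries. The 6 blood markers went the other way, at 1326, 338 and 485 in saline and 94.3, 146 and 50.7 in ethanol, with no overlap between the groups. Cortical neurons were present in every library, since Neurod2 and Tbr1 were detected in all 6. For some lists and genes the value is therefore also given without library 4 or with library 5 as the only ethanol library. The part of sex, dissection and blood in the differences below was not tested.

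**Figure D1:**
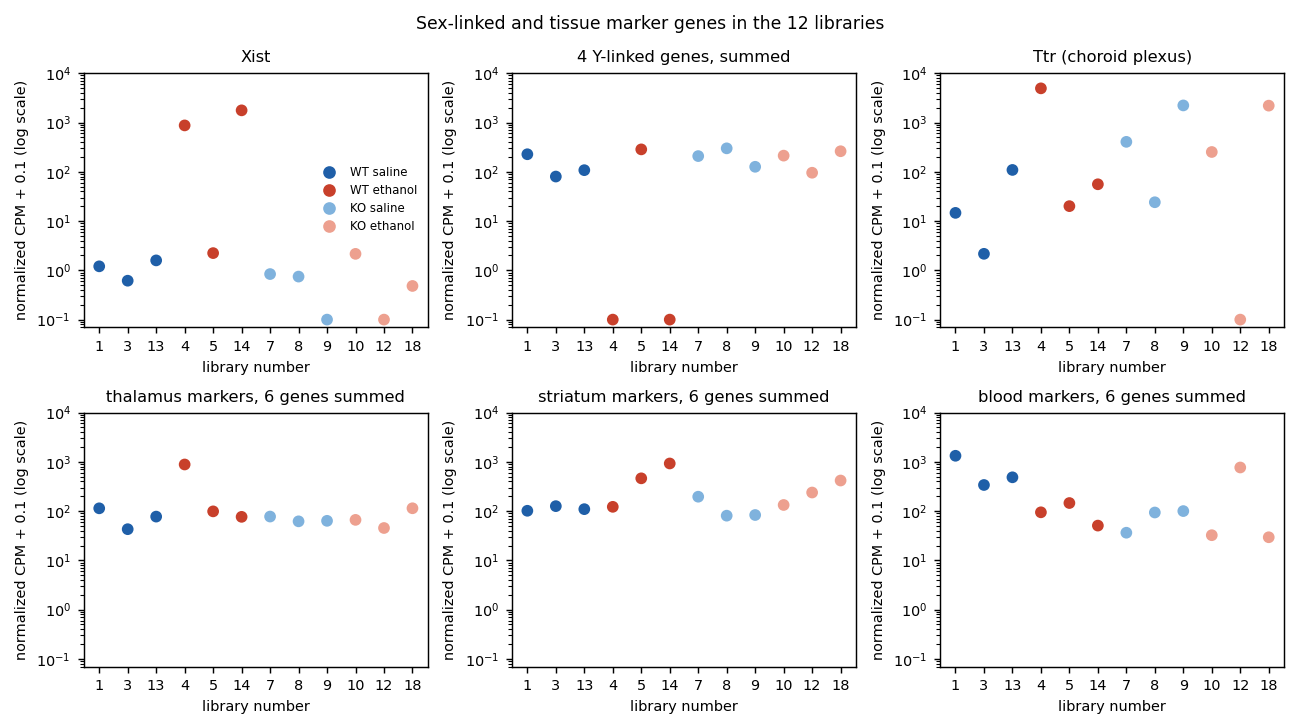
Normalized CPM plus 0.1 (log scale) of Xist, of 4 Y-linked genes summed, of Ttr and of 3 marker lists in each of the 12 libraries, which are on the horizontal axis and coloured by group. WT ethanol 4 and 14 are high for Xist and at 0 for the Y-linked genes, and WT ethanol 4 is the highest of the 12 for Ttr, followed by KO saline 9 and KO ethanol 18, and for the thalamic markers.

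Total counts were between 1953154 and 15719626 in WT saline and between 5060577 and 15387284 in WT ethanol. The composition of the libraries also differed. The 100 most abundant genes took 32.9%, 17.9% and 21.5% of the counts in WT saline and 13.3%, 15.8% and 14.4% in WT ethanol, so they took more in each saline library than in any ethanol library.

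Of 14716 genes tested, 1773 rose (12.0%) and 1525 fell (10.4%) after ethanol at an adjusted p under 0.30. At an adjusted p under 0.05, 10 rose (0.068%) and 1 fell (0.0068%). All 3 ethanol libraries were above all 3 saline libraries for 1655 genes (11.2%) and below them for 1219 (8.28%). Both conditions held together, a call at 0.30 and no overlap, for 1212 genes that rose and 813 that fell. The unadjusted p was under 0.05 for 2697 genes, and an exact permutation of 3 libraries against 3 cannot go below p = 0.1 for a single gene.

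The number of calls rested on single libraries and on the scaling. Without WT ethanol 4, 69 genes rose and 3 fell at 0.30, and without WT saline 1, 167 rose and 28 fell. With WT ethanol 5 alone against WT saline, 3252 of the 3298 called genes had the same sign. These genes were called in a fit that held library 5 and the same saline libraries. The share therefore cannot show that the directions hold. In a fit of the 6 WT libraries alone, 36 genes rose and 3 fell. Of the gene and marker lists below, those with any call left without WT ethanol 4 were sodium and calcium channels and striatal markers with 2 each, and glutamate receptors, potassium channels, vesicle release, S phase and mitosis, and long noncoding RNAs with 1 each, all higher. Without TMM scaling the median log2 fold change of all genes moved by 0.44, and 3545 genes rose and 502 fell, so the split between higher and lower holds only relative to the median gene.

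The direction of change followed transcript length. Genes that rose had a median transcript length of 4346 bases and genes that fell one of 1348 bases, against 2957 bases over all tested genes. In the shortest of 5 equal groups of genes the median log2 fold change was -0.70, with 32.5% of the genes lower and 3.12% higher. In the longest group the median was 0.55, with 1.34% lower and 24.7% higher. The same order was seen with ethanol library 5 alone, from -0.65 in the shortest to 0.31 in the longest group.

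The trend was already present between libraries of 1 group. The median log2 deviation of the longest minus the shortest of these groups was -1.31, -0.09 and -0.74 in WT saline and 0.79, 0.06 and 0.22 in WT ethanol. It was between 0.29 and 0.70 in KO saline and between -1.01 and 0.30 in KO ethanol, so WT saline 1 and 13 and KO ethanol 12 held relatively more RNA of short transcripts than the rest. Removal of each library's trend with length and GC content left 1528 genes higher and 1069 lower, and 1785 of the 3298 calls were kept. For some lists and genes below the value after that removal is also given. Of the 11 genes at an adjusted p under 0.05, 9 kept that level after it.

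**Figure D2:**
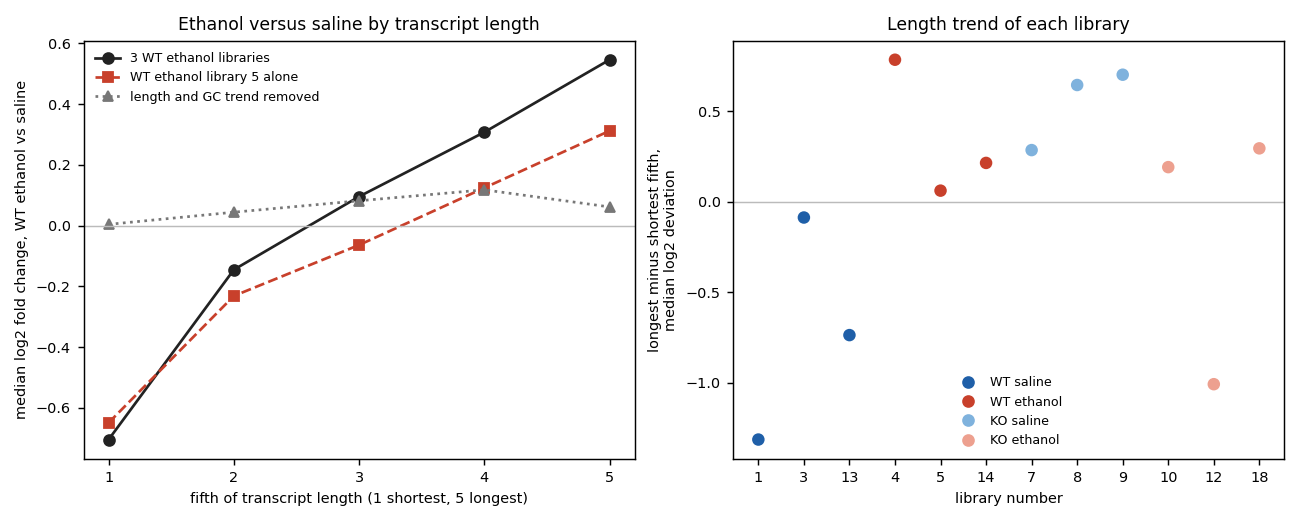
Left, the median log2 fold change of WT ethanol versus saline in 5 equal groups of genes ordered by transcript length, with all 3 ethanol libraries, with ethanol library 5 alone and after removal of the length and GC trend. Right, the difference of the longest and the shortest group in each library, in median log2 deviation from the mean of the 12 libraries. The median climbs from -0.70 to 0.55, and WT saline 1 has the lowest trend of the 12 libraries.

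The 10 genes that rose at the stricter level are given first. Cit (chr5:115845656-116006342 in mm10), which encodes citron kinase, which is needed for the last step of cell division, was at 1.84, 0.516 and 0.8201 in saline and at 31.7, 14.6 and 13.4 in ethanol. Every ethanol library was far above every saline library. It rose by 4.15 ± 0.58 (SE) on the log2 scale (adjusted p = 0.0304). Plcb4 (chr2:135741830-136013069), a phospholipase C that acts downstream of Gq-coupled receptors, was at 1.29, 2.58 and 1.57 and 50.8, 16.7 and 16.2. Library 4 was the highest and libraries 5 and 14 were close to each other, and the fold change was 4.05 ± 0.59 (SE) (adjusted p = 0.0304).

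A pair of paternally expressed imprinted genes was in the same group. Peg3 (chr7:6705960-6730420), a zinc finger protein, was at 5.53, 10.3 and 9.47 and then 157, 70.3 and 82.8, a log2 fold change of 3.63 ± 0.54 (SE) (adjusted p = 0.0304). Rasgrf1 (chr9:89909775-90026980), a calcium-responsive exchange factor that activates Ras in neurons, was at 10.1, 6.19 and 7.31 and 93.6, 48.8 and 44.4, a log2 fold change of 2.97 ± 0.45 (SE) (adjusted p = 0.0304). Neither gene showed any overlap between the groups, and library 4 was the highest for both.

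Gabbr2 (chr4:46663898-46991715), a subunit of the metabotropic GABA-B receptor, was at 5.34, 19.1 and 14.8 in saline and 204, 107 and 68.7 in ethanol, and rose by 3.30 ± 0.51 (SE) (adjusted p = 0.0335). Rims1 (chr1:22288422-22805725), a scaffold of the presynaptic active zone, was at 4.05, 7.22 and 8.05 and 51.01, 37.1 and 29.6, with a log2 fold change of 2.61 ± 0.40 (SE) (adjusted p = 0.0304). Kcnn3 (chr3:89520164-89672495), a small-conductance calcium-activated potassium channel, was at 1.29, 2.58 and 3.73 and 32.4, 17.9 and 15.2, with a log2 fold change of 3.07 ± 0.50 (SE) (adjusted p = 0.0414). In each of the 3 the lowest ethanol library was above the highest saline library.

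Hivep3 and Fam13b had narrow groups, though Hivep3 in saline lay close to 1.54, the level of 3 counts in saline library 3. Hivep3 (chr4:119814678-120135412), a large zinc finger transcription factor, was at 1.66, 2.06 and 1.64 in saline and 17.2, 19.8 and 14.8 in ethanol, a log2 fold change of 3.31 ± 0.54 (SE) (adjusted p = 0.0414). After removal of the length and GC trend its value was 2.47 (adjusted p = 0.070), outside the stricter level. Fam13b (chr18:34442351-34506824), which has a GTPase-activating domain, was at 13.5, 13.4 and 20.2 and 69.7, 75.4 and 58.3, a log2 fold change of 2.10 ± 0.35 (SE) (adjusted p = 0.0414). 2010300C02Rik (chr1:37611676-37719812) was at 7.19, 20.6 and 9.02 and 119, 70.7 and 48.8 without overlap, and rose by 2.75 ± 0.46 (SE) (adjusted p = 0.0473). All 10 genes kept their sign in every fit that left out 1 library and stayed under 0.30 in 12 of 12 such fits. With ethanol library 5 alone their log2 fold changes were between 2.22 (Fam13b) and 3.67 (Cit). These genes were called in a fit that held library 5 and the same saline libraries. Those values therefore cannot show that the changes hold.

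**Figure D3:**
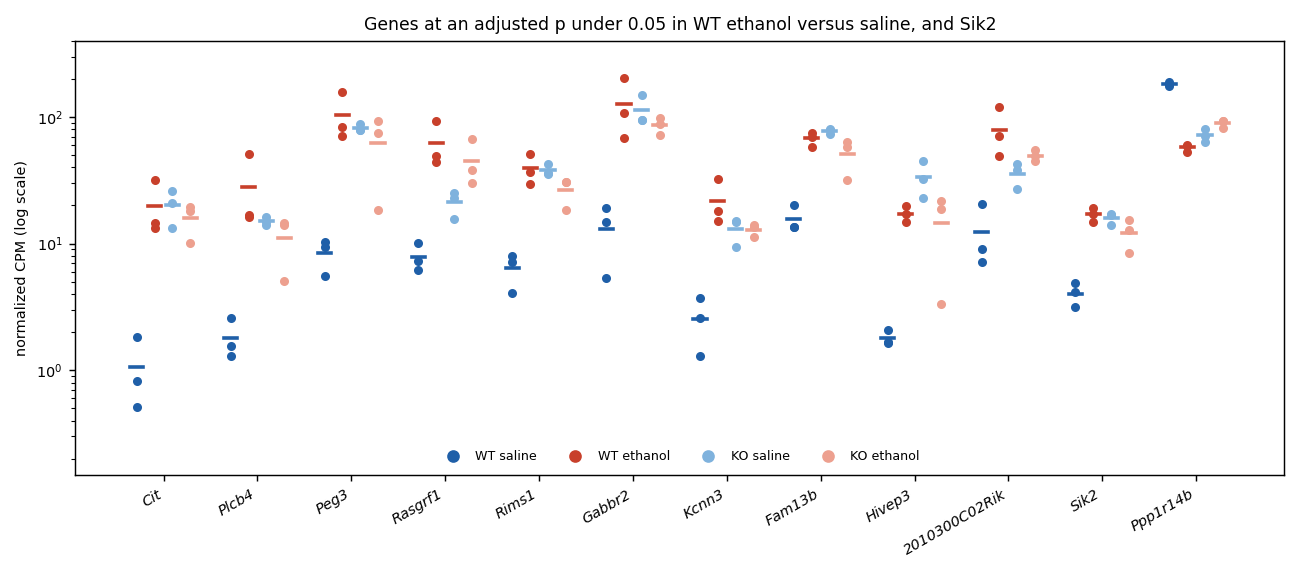
Normalized CPM (log scale) in each library for the 11 genes at an adjusted p under 0.05 and for Sik2, with a bar at each group mean. In the WT groups no gene overlaps, and Ppp1r14b is the only one shown that is lower after ethanol.

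Just outside the stricter level were Oprk1, Dlgap2 and Sik2. Oprk1, the kappa opioid receptor, was at 7.37, 4.64 and 4.03 in saline and 32.8, 51.1 and 19.4 in ethanol and rose by 2.69 ± 0.47 (SE) (adjusted p = 0.0554). Oprk1 was highest in library 5 and, of the ethanol libraries, lowest in library 14. The striatal markers had another order, with sums of 122, 462 and 925 in ethanol libraries 4, 5 and 14. Dlgap2, a scaffold of the postsynaptic density, was at 2.58, 2.58 and 2.68 and 10.6, 17.1 and 11.1, with almost no spread in saline (log2 fold change 2.30 ± 0.41 (SE), adjusted p = 0.06399). A level of 1.54 is 3 counts in saline library 3, so the value of that library rests on few counts. Sik2, a salt-inducible kinase that regulates CREB coactivators, was at 3.13, 4.13 and 4.85 and 19.1, 14.8 and 17.1 (log2 fold change 2.06 ± 0.39 (SE), adjusted p = 0.0674). Both groups of Sik2 were tight, and its value with library 5 alone was 1.83.

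Only 1 gene fell at the stricter level. Ppp1r14b (chr19:6975048-6977325), an inhibitor of protein phosphatase 1, had a level of 175, 190.3 and 181 in saline and 53.3, 58.9 and 60.1 in ethanol. Both groups were narrow and far apart (log2 fold change -1.67 ± 0.28 (SE), adjusted p = 0.0473). The change was -1.10 after removal of the length and GC trend (adjusted p = 0.131). Purg, a single-stranded nucleic acid binding protein, was at 240.5, 204 and 97.9 in saline and 38.9, 66.4 and 56.9 in ethanol, and fell with a log2 fold change of -1.74 ± 0.40 (SE) (adjusted p = 0.116). Nmral1, a redox-sensing protein, was at 60.8, 29.4 and 39.8 and 7.73, 16.6 and 14.3 (log2 fold change -1.76 ± 0.41 (SE), adjusted p = 0.1203). Library 4 was the lowest for both of the latter.

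Cisd3, Mvb12a and Zdhhc16 fell as well. Cisd3, a mitochondrial iron-sulfur protein, was at 76.1, 43.8 and 30.9 in saline and 14.2, 20.8 and 14.5 in ethanol. Mvb12a, a subunit of the ESCRT-I sorting complex, was at 36.9, 41.3 and 36.3 and 14.9, 16.4 and 15.5. Zdhhc16, a palmitoyltransferase, was at 81.6, 98.5 and 104 and 29.1, 46.1 and 43.9. Their log2 fold changes were -1.61, -1.29 and -1.26 (adjusted p = 0.153, 0.153 and 0.138), and the groups of all 3 were apart. The spread was widest in saline for Cisd3, where library 1 was the highest.

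The RNA components of 2 ribonucleoproteins were among them. Rpph1, the RNA of ribonuclease P, was at 101, 6.19 and 24.97 and 1.02, 1.21 and 2.47, and Rmrp, the RNA of ribonuclease MRP, was at 77.2, 7.74 and 9.39 and 0.341, 1.02 and 2.64. Both were high in saline library 1 in particular, yet the lowest saline library was above the highest ethanol one in each case. They fell with log2 fold changes of -4.89 ± 1.22 (SE) and -4.70 ± 1.20 (SE) (adjusted p = 0.138 and 0.1504), and without saline library 1 that of Rmrp was -2.83. Neither RNA is polyadenylated, and the labels call the libraries mRNA-seq while the study's methods call them total RNA.

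Ccl6, a chemokine of myeloid cells, was at 14.7, 3.61 and 19.5 in saline and 2.78, 1.77 and 1.94 in ethanol, and it fell with a log2 fold change of -2.56 ± 0.63 (SE) (adjusted p = 0.129). Ado, a thiol dioxygenase, fell from 159, 89.2 and 143 to 46.2, 59.4 and 55.2 (log2 fold change -1.29 ± 0.32 (SE), adjusted p = 0.131). Ado has a transcript of 4445 bases, longer than most genes that fell, and its value after removal of the length and GC trend was -1.60 (adjusted p = 0.05701). Ebpl, a relative of the sterol isomerase EBP, was at 81.1, 39.2 and 42.3 and 9.71, 23.3 and 14.3 (log2 fold change -1.78 ± 0.44 (SE), adjusted p = 0.131). Sypl2, a synaptophysin-like membrane protein, was at 5.16, 7.74 and 14.9 and 1.36, 1.39 and 2.64 (log2 fold change -2.42 ± 0.61 (SE), adjusted p = 0.138). No saline library of these 4 genes overlapped an ethanol library, as the choice of the genes required.

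Genes of the ribosome were lower after ethanol. Of 78 tested cytosolic ribosomal protein genes, 73 fell, 0 rose and 5 did not pass, and their median log2 fold change was -2.15 against 0.06 for all genes. Their summed level was 338034, 64679.7 and 97876 normalized CPM in saline and 24544, 55585 and 34218 in ethanol, with saline library 1 far above the rest and no overlap of the groups. The median was -1.62 with ethanol library 5 alone, -1.06 without saline library 1 and -1.47 without TMM scaling, where the median of all genes was 0.49. These transcripts are short, with a median of 795 bases. After removal of the length and GC trend the median was -0.92, and 38 genes fell and 1 rose. Many of these genes have processed pseudogenes with near-identical sequence, so reads may have been split between copies.

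Rpl39 and Rps27 had the smallest p of the list. Rpl39 was at 9098, 591 and 1161 in saline and 178, 689 and 341 in ethanol, and the groups overlapped because ethanol library 5 was above saline library 3. It fell with a log2 fold change of -3.17 ± 0.94 (SE) (adjusted p = 0.185). Rps27 was at 4438, 349.6 and 566 and 102, 296 and 271 without overlap (log2 fold change -3.0 ± 0.90 (SE), adjusted p = 0.189). Rpl27 was at 2106, 579.8 and 594 and 162, 295 and 260.1, and Rps15a at 4983, 492 and 1053 and 247, 569 and 415 (log2 fold changes -2.19 ± 0.68 (SE) and -2.41 ± 0.75 (SE)). Without saline library 1 the log2 fold changes were -1.15 (Rpl39), -1.06 (Rps27), -1.32 (Rpl27) and -0.94 (Rps15a).

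Ribosomal protein mRNAs classically begin with a C followed by a run of pyrimidines, the terminal oligopyrimidine tract that couples their translation to growth signals. A tract was counted as a C followed by at least 4 C or T, beginning within 2 bases of the annotated start. It was found in 22 of 68 RefSeq promoters of the list (32.4%, 57 of 78 symbols matched), in 9 of 69 of the oxidative phosphorylation list (13.0%) and in 2942 of 32851 of all promoters (8.96%). The start regions of the 4 genes above are shown from 30 bases before to 30 bases after the start (RefSeq, GRCm38.p6, 5′ to 3′ on the gene's strand), because these genes fell together. Capitals mark a tract.
Rpl39 (chrX:37085193-37085252, minus strand): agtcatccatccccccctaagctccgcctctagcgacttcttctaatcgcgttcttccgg
Rps27 (chr3:90213619-90213678, minus strand): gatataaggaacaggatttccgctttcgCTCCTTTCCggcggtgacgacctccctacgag
Rpl27 (chr11:101442215-101442274, plus strand): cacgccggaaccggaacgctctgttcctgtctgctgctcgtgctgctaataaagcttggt
Rps15a (chr7:118116118-118116177, minus strand): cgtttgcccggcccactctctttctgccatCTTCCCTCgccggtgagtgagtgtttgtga
By this rule Rps27 and Rps15a hold the tract and Rpl39 and Rpl27 do not, and all 4 were lower after ethanol. In Rpl39 a C with a run of pyrimidines lies further after the annotated start, where the rule does not count it. The count therefore depends on how exact the annotated starts are.

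Oxidative phosphorylation makes most of the ATP of neurons. Of 79 nuclear-encoded subunits of oxidative phosphorylation, 66 fell and 0 rose, with a median log2 fold change of -1.54 (-1.14 with ethanol library 5 alone, -0.74 without saline library 1). Their summed level was 95771, 19189 and 32537 in saline and 10980.5, 21087 and 17174 in ethanol, where saline library 3 was below ethanol library 5 and saline library 1 was far above the rest. Ndufa12, a subunit of complex I, was at 870.2, 228 and 279.9 in saline and 70.3, 133 and 164 in ethanol without overlap (log2 fold change -1.91 ± 0.60 (SE), adjusted p = 0.195, and -1.07 without saline library 1). Sdhc, a subunit of complex II, was at 297, 142 and 268 and 87.5, 114 and 60.3 (log2 fold change -1.44 ± 0.47 (SE), adjusted p = 0.1998). After removal of the length and GC trend the median of the list was -0.53, and 13 members fell.

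Of 76 mitochondrial ribosomal proteins 42 fell and 0 rose, with a median of -0.91. Mrpl23 was at 324, 115 and 101 in saline and 29.03, 51.9 and 60.6 in ethanol (log2 fold change -1.94 ± 0.57 (SE), adjusted p = 0.185). The proteasome, which degrades ubiquitin-tagged proteins, had 23 of 46 subunits lower and 1 higher, with a median of -0.90. Psmb4, a subunit of its core, was at 955, 254 and 479 and 147, 213 and 154 (log2 fold change -1.72 ± 0.52 (SE), adjusted p = 0.189). In both of these genes saline library 1 was the highest and ethanol library 4 the lowest, and without saline library 1 their values were -1.21 and -1.13. The summed level of the mitochondrial ribosomal list was 11342, 3875 and 4809 in saline and 2089, 3786 and 3317 in ethanol. That of the proteasome was 17652, 5835 and 8981 and 4034, 6312 and 5512, where saline library 3 was below ethanol library 5. Without saline library 1 the list medians were -0.55 and -0.50. The medians after removal of the length and GC trend were -0.29 and -0.26, with 16 and 5 members lower.

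**Figure D4:**
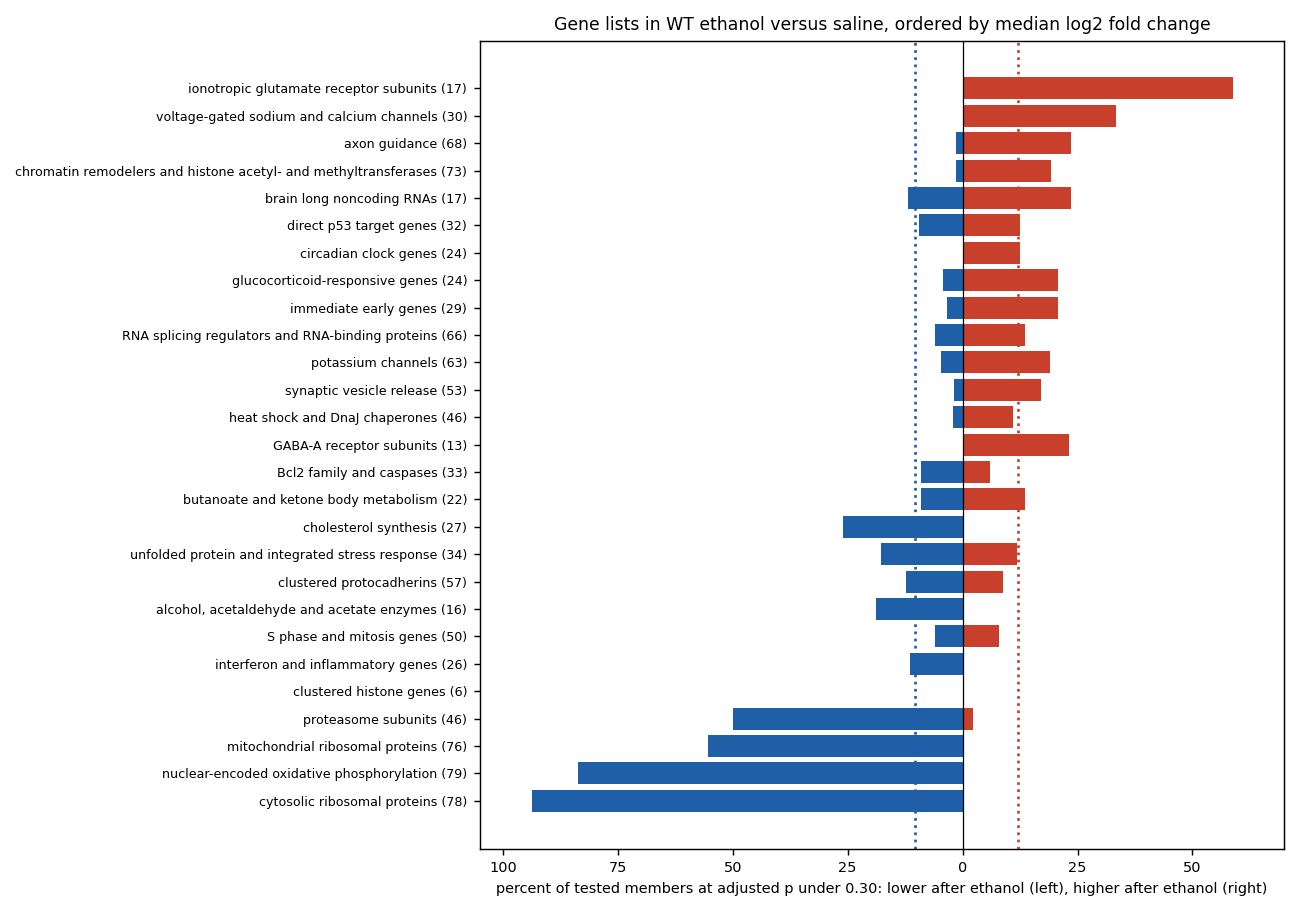
Percent of the tested members of each of 27 gene lists that passed an adjusted p under 0.30, lower after ethanol to the left (blue) and higher to the right (red), with the number tested in brackets and the lists ordered by median log2 fold change. Dotted lines give the same shares over all genes, 10.4% lower and 12.0% higher. Ribosomal and respiratory chain lists lie at the bottom and the glutamate receptor and the sodium and calcium channel lists at the top.

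Ionotropic glutamate receptors carry fast excitatory transmission. Of 17 tested ionotropic glutamate receptor subunits, 10 rose and 0 fell (58.8% and 0%, all genes 12.0% and 10.4%). The median log2 fold change was 0.94, and it was 0.92 with library 5 alone and 0.57 after removal of the length and GC trend (6 higher). Their transcripts have a median length of 5431 bases. Grik2, a kainate receptor subunit, was at 27.1, 27.9 and 21.6 in saline and 89.02, 92.4 and 109 in ethanol, and both groups were narrow (log2 fold change 1.93 ± 0.35 (SE), adjusted p = 0.06399). Gria2, the subunit that makes AMPA receptors impermeable to calcium, was at 281, 219.7 and 134 and 413, 648 and 743 (log2 fold change 1.51 ± 0.49 (SE), adjusted p = 0.199). Neither gene overlapped.

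Of 13 GABA-A receptor subunits 3 rose and 0 fell (23.1% and 0%, all genes 12.0% and 10.4%). The median of the list was 0.00, and it was 0.61 with library 5 alone and 0.26 without library 4. Gabra2, one of the alpha subunits, was at 1.29, 9.801 and 0.969 in saline and 25.7, 11.99 and 7.58 in ethanol, where saline library 3 was above ethanol library 14 (log2 fold change 2.18 ± 0.78 (SE), adjusted p = 0.208). Gabrq and Gabrg3 also rose, by 1.82 ± 0.59 (SE) and 1.54 ± 0.65 (SE) (adjusted p = 0.199 and 0.2398). Without library 4 the value of Gabrg3 was 0.95, and without saline library 3 that of Gabra2 was 3.70. Enzymes of GABA turnover rose without overlap. Gad2 was at 24.3, 60.4 and 21.2 and 104, 115 and 105, and Gad1 at 95.3, 74.3 and 74.999 and 173, 149 and 141 (log2 fold changes 1.64 ± 0.40 (SE) and 0.92 ± 0.31 (SE), adjusted p = 0.131 and 0.208). Both synthesize GABA and mark GABAergic neurons. Abat, which breaks GABA down, was at 109.6, 73.2 and 165 and 318, 237 and 260.3 (log2 fold change 1.23 ± 0.35 (SE), adjusted p = 0.1803). Striatal markers, which are GABAergic in the main, were higher in libraries 5 and 14, and their part here was not tested. In such bulk samples more cells of a type and more RNA per cell cannot be told apart.

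Voltage-gated channels set the excitability of neurons. Of 30 voltage-gated sodium and calcium channel genes 10 rose and 0 fell (33.3% and 0%, all genes 12.0% and 10.4%). The median of the list was 0.73 (0.43 with library 5 alone, 0.40 with 6 higher after removal of the length and GC trend). Cacna1e, the R-type calcium channel, was at 22.7, 12.9 and 19.98 in saline and 159, 81.5 and 94.5 in ethanol (log2 fold change 2.58 ± 0.55 (SE), adjusted p = 0.101). After removal of that trend its value was 1.66 (adjusted p = 0.122). Scn9a, a sodium channel better known from sensory neurons, was at 2.76, 4.64 and 0.671 and 31.1, 15.7 and 67.3 (log2 fold change 4.04 ± 0.91 (SE), adjusted p = 0.113). Scn4b, an auxiliary sodium channel subunit, was at 0.369, 0 and 0.8201 and 1.87, 24.4 and 32.1 (adjusted p = 0.121), and library 4 was far below libraries 5 and 14, the order of the striatal markers. Of 63 potassium channel genes 12 rose and 3 fell, with a median of 0.22. Kcns3, a modulatory potassium channel subunit of fast-spiking interneurons, fell, at 11.98, 8.25 and 9.77 and 0.909, 1.21 and 6.17 (log2 fold change -1.94 ± 0.64 (SE), adjusted p = 0.203, and -3.30 without ethanol library 14).

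Of 53 genes of synaptic vesicle release 9 rose and 1 fell (17.0% and 1.89%, all genes 12.0% and 10.4%), with a median of 0.18. Napb, a cofactor that recycles SNARE complexes in neurons, was at 65.97, 74.8 and 109 in saline and 239, 339 and 159.7 in ethanol (log2 fold change 1.56 ± 0.38 (SE), adjusted p = 0.1302). Sv2c, a vesicle glycoprotein, was at 1.29, 2.58 and 2.91 and 11.6, 7.43 and 8.81 (log2 fold change 2.03 ± 0.49 (SE), adjusted p = 0.129). Of 68 axon guidance genes 16 rose and 1 fell, with a median of 0.50, and it was 0.14 with library 5 alone and 0.11 after removal of the length and GC trend. Plxnc1, a semaphorin receptor, was at 24.3, 15.5 and 18.2 and 144, 96.1 and 38.6 (log2 fold change 2.26 ± 0.48 (SE), adjusted p = 0.0967). Ntn1, the guidance cue netrin-1, was at 1.66, 3.61 and 5.07 and 24.03, 9.57 and 14.1 (log2 fold change 2.18 ± 0.58 (SE), adjusted p = 0.161). Neither guidance gene overlapped, and library 4 was the highest of the 6 for both.

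Regulators of chromatin leaned upward. Of 73 chromatin remodelers and histone acetyl- and methyltransferases 14 rose and 1 fell (19.2% and 1.37%, all genes 12.0% and 10.4%). Of these 73 genes 62 had a positive log2 fold change. The median of the list was 0.49 (0.24 after removal of the length and GC trend, with 7 higher and 2 lower). Their median transcript length was 6697 bases. Crebbp, a histone acetyltransferase and coactivator of CREB, was at 5.16, 7.74 and 4.03 in saline and 38.97, 14.96 and 19.9 in ethanol (log2 fold change 2.18 ± 0.47 (SE), adjusted p = 0.0967). After removal of that trend its value was 1.37 (adjusted p = 0.0827). Dot1l, which methylates a lysine in the core of histone H3, was at 1.47, 6.19 and 4.17 and 33.7, 16.3 and 36.8 (log2 fold change 2.95 ± 0.80 (SE), adjusted p = 0.166). Ash1l and Setd2, both methyltransferases of the tail of histone H3, rose by 1.53 ± 0.39 (SE) and 1.27 ± 0.39 (SE) (adjusted p = 0.153 and 0.193). The value of Ash1l after removal of that trend was 0.89 (adjusted p = 0.156).

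Of 66 splicing regulators and RNA-binding proteins 9 rose and 4 fell (13.6% and 6.06%, beside 12.0% and 10.4% of all genes), with a median of 0.37. Hnrnpm was at 42.8, 35.6 and 28.5 in saline and 88.4, 63.2 and 123.2 in ethanol (log2 fold change 1.36 ± 0.39 (SE), adjusted p = 0.184). Pnisr, a protein of nuclear speckles, was at 22.9, 67.6 and 11.1 and 169.9, 107 and 315, and its spread was wide in both groups (log2 fold change 2.58 ± 0.85 (SE), adjusted p = 0.203). Khdrbs1, known as Sam68, fell, at 477, 252 and 339 and 147, 199 and 198 (log2 fold change -0.97 ± 0.34 (SE), adjusted p = 0.208). Of 6 clustered histone genes that passed the count filter, out of 68 listed, 0 passed the test in edgeR at 0.30 in either direction, 0 at an unadjusted p under 0.05 and 0 in DESeq2 at 0.30, and their median was -0.66.

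Trp53 itself was at 3.69, 26.3 and 14.5 in WT saline and 14.8, 7.25 and 20.1 in WT ethanol, and the groups overlapped (log2 fold change -0.04 ± 0.60 (SE), adjusted p = 0.978). Its sign turned in several other fits, with values up to 0.56. Dmtf1, a transcription factor that activates the Arf tumor suppressor upstream of p53, was at 25.98, 47.5 and 25.6 and 55.6, 69.96 and 102 (log2 fold change 1.21 ± 0.37 (SE), adjusted p = 0.189). Every ethanol library was above every saline library for Dmtf1, and its transcript NM_011806 rose too, at 10.8, 11.4 and 14.7 and 43.3, 50.7 and 64.3 (adjusted p = 0.0593).

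Direct p53 targets did not move as 1 block. Of 32 tested 4 rose and 3 fell, shares of 12.5% and 9.38% beside 12.0% and 10.4% of all genes. The median of the list was 0.45, and it was 0.22 without library 4 and 0.26 with library 5 alone. Mdm2, the ubiquitin ligase that limits p53, was at 12.5, 20.6 and 17.7 in saline and 34.5, 31.5 and 30.3 in ethanol without overlap (log2 fold change 0.93 ± 0.32 (SE), adjusted p = 0.208). Ei24, an endoplasmic reticulum protein induced by etoposide, was at 362, 186 and 375 and 109.9, 166 and 119 (log2 fold change -1.22 ± 0.35 (SE), adjusted p = 0.184). Rprm, a mediator of cell cycle arrest that is abundant in deep cortical layers, was at 169.7, 227 and 177 and 37.9, 98.2 and 94.1 (log2 fold change -1.32 ± 0.38 (SE), adjusted p = 0.184). Ei24 and Rprm both fell, without overlap.

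Of 33 Bcl2 family members, caspases and their partners 2 rose and 3 fell (6.06% and 9.09%, below the shares of all genes), with a median of -0.04. Bax, the pore-forming effector of mitochondrial apoptosis, was at 255, 120.2 and 130.4 in saline and 48.1, 90.4 and 98.9 in ethanol (log2 fold change -1.09 ± 0.39 (SE), adjusted p = 0.2097). It fell here, and the value was -0.68 without saline library 1 and -0.39 after removal of the length and GC trend (adjusted p = 0.543). Hrk, a BH3-only protein that promotes death of neurons, rose, at 19.2, 15.99 and 20.9 and 66.9, 97.9 and 19.7, and ethanol library 14 lay within the saline range (log2 fold change 1.71 ± 0.57 (SE), adjusted p = 0.203). Bcl2l2, a protective member, rose by 0.72 ± 0.31 (SE) (adjusted p = 0.243). Cycs, which encodes cytochrome c, was at 2364, 334 and 752 and 196, 606 and 411, and its fall turned on saline library 1 (log2 fold change -1.51 ± 0.67 (SE), adjusted p = 0.251, and -0.45 without that library).

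Immediate early genes are switched on within minutes of neuronal activity, largely through CREB and SRF. Of 29 tested 6 rose and 1 fell (20.7% and 3.45%, all genes 12.0% and 10.4%). The median of the list was 0.38 (0.18 without library 4, 0.32 with library 5 alone). Arc, which governs AMPA receptor removal, was at 0.921, 3.09 and 1.71 in saline and 10.4, 4.83 and 4.76 in ethanol (log2 fold change 1.93 ± 0.64 (SE), adjusted p = 0.203). Fos, a subunit of AP-1, was at 2.76, 0 and 2.91 and 18.6, 5.39 and 3.701 (log2 fold change 2.11 ± 0.77 (SE), adjusted p = 0.212, and 1.05 without library 4). Neither overlapped, at low levels in saline, and library 4 was the highest for both. Bdnf, a neurotrophin, was at 7.003, 3.09 and 3.802 and 19.1, 18.1 and 1.94, and Nr4a2, an orphan nuclear receptor, at 16.4, 3.61 and 4.399 and 12.8, 47.3 and 15.3 (log2 fold changes 1.48 ± 0.68 (SE) and 1.60 ± 0.75 (SE), adjusted p = 0.264 and 0.273). Both of these overlapped, since ethanol library 14 was low for Bdnf and saline library 1 was high for Nr4a2, whose value was 2.59 without that library and 0.76 without ethanol library 5.

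CREB binds a palindrome whose half-site is TGACG, which reads CGTCA on the other strand. A half-site on either strand was found within 250 bases before to 50 bases after the start in 20 of 36 RefSeq promoters of the immediate early gene list (55.6%, 23 of 29 symbols matched) and in 20.8% of all 32851 promoters. The promoters of Fos and Nr4a2 are shown from 210 bases before to 10 bases after the start (RefSeq, GRCm38.p6, 5′ to 3′ on the gene's strand), as members of the list with several half-sites. Capitals mark them.
Fos (chr12:85473680-85473899, plus strand): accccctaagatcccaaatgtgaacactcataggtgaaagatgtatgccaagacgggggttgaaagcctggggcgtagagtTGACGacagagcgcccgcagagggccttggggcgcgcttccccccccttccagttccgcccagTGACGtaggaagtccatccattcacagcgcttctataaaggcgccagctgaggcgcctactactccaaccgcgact
Nr4a2 (chr2:57123994-57124213, minus strand): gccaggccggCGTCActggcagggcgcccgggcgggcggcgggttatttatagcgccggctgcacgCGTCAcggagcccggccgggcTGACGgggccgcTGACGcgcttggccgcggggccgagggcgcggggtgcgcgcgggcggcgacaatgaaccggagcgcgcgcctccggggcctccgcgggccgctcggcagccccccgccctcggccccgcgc
Fos holds 2 and Nr4a2 4 such matches in this window, which is a description of the letters and not of binding.

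Genes that respond to glucocorticoids, the steroid stress hormones of the adrenal cortex, leaned upward with all 3 ethanol libraries. Of 24 tested 5 rose and 1 fell (20.8% and 4.17%, all genes 12.0% and 10.4%), with a median of 0.41. The median was 0.08 without library 4 and 0.25 with library 5 alone. Nr3c2, the mineralocorticoid receptor, was at 1.84, 0.516 and 4.92 in saline and 38.8, 13.8 and 8.11 in ethanol (log2 fold change 2.87 ± 0.68 (SE), adjusted p = 0.125). Klf9, a transcription factor induced by glucocorticoid and thyroid hormone, was at 14.9, 12.4 and 39.7 and 74.9, 89.8 and 62.2 (log2 fold change 1.73 ± 0.44 (SE), adjusted p = 0.139). Pdk4, a kinase that holds pyruvate back from oxidation, was at 4.61, 0.516 and 6.78 and 16.6, 15.1 and 7.93 (log2 fold change 1.62 ± 0.63 (SE), adjusted p = 0.2198). All 3 were without overlap, and the largest Klf9 level in saline was in library 13. Of 24 circadian clock genes 3 rose and 0 fell (12.5% and 0%, beside 12.0% and 10.4% of all genes), with a median of 0.42. Clock, a core activator of the rhythm, was at 37.6, 55.2 and 34.7 and 80.2, 78.8 and 68.2 (log2 fold change 0.84 ± 0.36 (SE), adjusted p = 0.239), and Per3 rose by 1.48 ± 0.66 (SE) (adjusted p = 0.256).

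Of 16 enzymes of alcohol, acetaldehyde and acetate 0 rose and 3 fell (0% and 18.75%, all genes 12.0% and 10.4%), with a median of -0.11. The median was -0.48 without library 4 and -0.49 with library 5 alone. Adh5, the class III alcohol dehydrogenase that clears formaldehyde, was at 563, 157 and 273 in saline and 87.9, 147 and 121 in ethanol (log2 fold change -1.48 ± 0.49 (SE), adjusted p = 0.202). Akr1a1, an aldehyde reductase, was at 2101, 593 and 1680.2 and 419, 668 and 529 (log2 fold change -1.44 ± 0.54 (SE), adjusted p = 0.216). Both were highest in saline library 1, without which Adh5 had a value of -0.89, and saline library 3 was below 1 ethanol library for Akr1a1. Of 22 genes of butanoate and ketone body metabolism 3 rose and 2 fell (13.6% and 9.09%, all genes 12.0% and 10.4%). The median of the list was -0.06, and the GABA enzymes Gad1, Gad2 and Abat were the 3 that rose.

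The sterol pathway fell in part. Of 27 genes of cholesterol synthesis 0 rose and 7 fell (0% and 25.9%, all genes 12.0% and 10.4%), with a median of -0.09. After removal of the length and GC trend 7 members were lower and the median was -0.21. It was -0.26 without library 4 and -0.23 with library 5 alone. Sqle, the monooxygenase that makes squalene epoxide, was at 360.1, 191 and 352 in saline and 134, 173 and 145 in ethanol (log2 fold change -1.0 ± 0.34 (SE), adjusted p = 0.208). Ebp, a sterol isomerase, was at 51.97, 22.2 and 30.7 and 11.9, 14.4 and 13.7 (log2 fold change -1.40 ± 0.44 (SE), adjusted p = 0.196). Nsdhl, a sterol dehydrogenase, was at 157, 76.9 and 130.02 and 48.9, 55.9 and 64.7 (log2 fold change -1.11 ± 0.43 (SE), adjusted p = 0.218). The groups of these 3 genes were apart. Saline library 1 was the highest of the 6 for each of them.

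Stress responses were mixed. Of 34 genes of the unfolded protein and integrated stress response 4 rose and 6 fell (11.8% and 17.6%, all genes 12.0% and 10.4%). The median of the list was -0.10, and it turned to 0.10 after removal of the length and GC trend. Chac1, a glutathione-degrading target of ATF4, fell, at 13.3, 13.9 and 10.2 in saline and 4.49, 3.34 and 4.58 in ethanol (log2 fold change -1.58 ± 0.44 (SE), adjusted p = 0.1704). Xbp1, whose mRNA is spliced on endoplasmic reticulum stress, was at 152, 95.9 and 138 and 69.1, 74.2 and 63.98 (log2 fold change -0.90 ± 0.33 (SE), adjusted p = 0.2097). Both groups of each gene were narrow and apart. Ern1, which encodes the nuclease IRE1 that splices Xbp1, rose, at 0.369, 1.03 and 1.57 and 4.26, 2.79 and 5.64 (log2 fold change 2.0 ± 0.75 (SE), adjusted p = 0.215).

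Of 46 heat shock and DnaJ chaperones 5 rose and 1 fell (10.9% and 2.17%, beside 12.0% and 10.4% of all genes), with a median of 0.14. Hspa2, an HSP70 protein, was at 3.13, 1.03 and 3.43 in saline and 29.2, 9.48 and 4.05 in ethanol (log2 fold change 2.39 ± 0.75 (SE), adjusted p = 0.194, and 1.29 without library 4), and Dnajb12, a cochaperone of the endoplasmic reticulum, at 4.61, 13.9 and 7.08 and 27.3, 19.7 and 19.2 (log2 fold change 1.43 ± 0.44 (SE), adjusted p = 0.192). Hspe1, the mitochondrial chaperonin 10, was at 756, 139 and 185 and 69.6, 162 and 143, so the groups overlapped, and its fall turned on saline library 1 (log2 fold change -1.53 ± 0.58 (SE), adjusted p = 0.215, and -0.40 without that library). Of 26 interferon and inflammatory genes 0 rose and 3 fell (0% and 11.5%). The median of the list was -0.36, and it turned to 0.12 after removal of the length and GC trend. Il17d, a cytokine of the IL-17 family, was at 19.9, 13.4 and 12.2 and 5.74, 6.13 and 5.11 (log2 fold change -1.42 ± 0.38 (SE), adjusted p = 0.165). B2m, the light chain of MHC class I, was at 696, 59.8 and 134 and 72.997, 89.6 and 78.96, and its fall turned on saline library 1 (log2 fold change -1.88, and -0.31 without that library).

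Of 50 genes of S phase and mitosis 4 rose and 3 fell, with a median of -0.18. The shares were 8.0% and 6.0%, below the 12.0% and 10.4% of all genes. Besides Cit, those that rose were the mitotic kinesins Cenpe, Kif4 and Kif11. Cenpe was at 3.13, 2.06 and 0.746 in saline and 7.38, 5.76 and 7.75 in ethanol, and Kif11 at 4.98, 4.64 and 3.73 and 11.2, 9.66 and 9.34 (log2 fold changes 1.88 ± 0.59 (SE) and 1.19 ± 0.48 (SE), adjusted p = 0.194 and 0.228). Of 57 clustered protocadherins, adhesion molecules that give neurons a surface identity, 5 rose and 7 fell (8.77% and 12.3%), with a median of -0.10. The isoforms of a cluster share their last exons, so their counts depend on how shared reads were divided. Of 17 brain long noncoding RNAs 4 rose and 2 fell (23.5% and 11.8%), with a median of 0.48. Kcnq1ot1, an imprinted antisense RNA, was at 23.04, 227 and 5.89 and 11.1, 11.2 and 12.9, so its fall turned on saline library 3 (log2 fold change -2.84 ± 0.90 (SE), adjusted p = 0.195, and -0.33 without that library). Pantr1, a noncoding RNA of cortical neurons, was at 863, 127 and 231 and 31.1, 78.97 and 139.9 (log2 fold change -2.29 ± 0.70 (SE), adjusted p = 0.18997), with an overlap at libraries 3 and 14. Its value was -1.13 without saline library 1 and -0.82 after removal of the length and GC trend.

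Cell type markers showed where the tissue differed. Of 6 striatal markers 5 rose, with a median log2 fold change of 2.54 (2.42 with library 5 alone). Ppp1r1b, the DARPP-32 of medium spiny neurons, was at 26.5, 47.5 and 49.4 in saline and 26.3, 190.5 and 462 in ethanol, and Penk, which encodes enkephalin, at 34.6, 5.67 and 9.17 and 18.4, 111 and 186. Libraries 5 and 14 were high for both and library 4 was not. Of 5 tested thalamic markers 3 rose with a median of 1.92, and it was -0.03 without library 4. Of 6 choroid plexus markers 3 rose (2.04, and -0.41 without library 4), and of 6 hippocampal markers 2 rose (1.43, and -0.44 without library 4). All 5 tested blood markers fell, with a median of -2.86 (-2.33 with library 5 alone).

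The classes native to cortex moved less. Of 6 markers of glutamatergic neurons 1 rose, Camk2a, at 137, 370.4 and 306 and 575, 681 and 389 (log2 fold change 1.02 ± 0.43 (SE), adjusted p = 0.241, and 0.67 without saline library 1), and the median was -0.72. Camk2a was the only 1 of the 6 with a positive log2 fold change. Of 6 GABAergic markers 2 rose, Gad1 and Gad2, with a median of 0.82, and none fell. Of 6 astrocyte markers 0 passed the test in edgeR, 0 had an unadjusted p under 0.05 and 0 passed in DESeq2, with a median of 0.30. Of 6 markers of mural cells and fibroblasts 0 passed in edgeR, 0 had an unadjusted p under 0.05 and 0 passed in DESeq2, with a median of 0.30. Of 6 oligodendrocyte lineage markers 1 rose, Pdgfra (70.9, 82.5 and 75.4 and 164, 109 and 106, adjusted p = 0.288). Of 6 microglial markers 2 fell, Aif1 and C1qa, while Csf1r and Cx3cr1 had positive log2 fold changes (0.06 and 0.62) and did not pass. Of 6 endothelial markers 2 rose, Flt1 and Kdr, and 4 had a positive log2 fold change. The medians of the microglial and endothelial lists were -0.10 and 0.44.

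Transcripts gave a finer view than gene sums. Of 21715 RefSeq transcripts tested, 2558 rose (11.8%) and 2119 fell (9.76%) at an adjusted p under 0.30, and 11 rose (0.0507%) and 1 fell (0.00461%) at 0.05. These 12 transcripts belong to 11 genes, of which 8 passed 0.30 and 5 passed 0.05 as gene sums. Of 3910 genes with a called transcript, 1106 were tested and not called as a sum. In 95 genes 1 transcript was higher and another lower at an unadjusted p under 0.05, with at least 5 normalized CPM on average, and 10 of these genes were called as sums. No transcript was called with ethanol library 5 alone in edgeR (1260 at an unadjusted p under 0.05).

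Sh3kbp1 (chrX:159627272-159975921), an endocytic adaptor of the CIN85 family, showed an exchange of this kind. Its sum was 46.8, 84.6 and 33.5 in saline and 70.4, 61.7 and 57.6 in ethanol (log2 fold change 0.21 ± 0.35 (SE), adjusted p = 0.764), with overlap. Transcript NM_001135727, of 7317 bases, was close to 0 in all saline libraries and at 18.8, 17.2 and 9.47 in ethanol (adjusted p = 0.0395). Transcript NM_001290664, of 783 bases, was at 29.3, 41.5 and 13.2 in saline and close to 0 in all ethanol libraries (adjusted p = 0.0395). The groups were apart for both, in opposite directions. No fold is given for either, since it would rest on a group near 0.

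Smarca2 (chr19:26605160-26778322), an ATPase of the SWI/SNF remodeling complex, was at 143, 207 and 60.98 and 139, 168 and 137 as a sum (log2 fold change 0.12 ± 0.39 (SE), adjusted p = 0.891). Its transcript NM_011416, of 5921 bases, was at 3.71, 13.1 and 6.37 in saline and 84.4, 88.3 and 60.9 in ethanol (log2 fold change 3.38 ± 0.46 (SE), adjusted p = 0.0395). The shorter NM_026003, of 1962 bases, was at 143, 193 and 56.5 and 53.4, 78.4 and 76.9 (log2 fold change -0.90 ± 0.41 (SE), adjusted p = 0.268). The groups were apart for the longer form and overlapped for the shorter one and for the sum. The shorter form passed 0.30 in 2 of 12 fits that left out 1 library, and its value was -0.66 after removal of the length and GC trend (adjusted p = 0.476).

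Map4 (chr9:109931774-110083955), a microtubule-associated protein, showed overlap as a sum, at 357, 539 and 404 in saline and 573, 538 and 449 in ethanol (log2 fold change 0.26 ± 0.34 (SE), adjusted p = 0.692). Its transcript NM_001205332 was at 10.2, 8.37 and 8.94 and 42.1, 51.6 and 55.999, with tight groups (log2 fold change 2.45 ± 0.37 (SE), adjusted p = 0.0395). NM_008633, of the same length, was at 10.5, 3.01 and 10.8 and 86.1, 71.2 and 79.1 (log2 fold change 3.23 ± 0.56 (SE), adjusted p = 0.0619). The form with the highest level, NM_001205331, of 3446 bases, was at 273, 269 and 298 and 199.7, 249.6 and 107 and did not pass the test (log2 fold change -0.59 ± 0.48 (SE), adjusted p = 0.527).

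Syne1 (chr10:5020196-5550693), a giant protein that links the nucleus to the cytoskeleton, had 1 transcript at the stricter level. NM_001079686 was at 4.42, 4.6004 and 4.01 in saline and 108, 28.1 and 33.3 in ethanol (log2 fold change 3.73 ± 0.54 (SE), adjusted p = 0.0395). Rnf6, a ubiquitin ligase, had transcript NM_028774 at 0.417 or lower in every saline library and at 17.5, 13.5 and 20.4 in ethanol (adjusted p = 0.0462), while its gene sum rose by 1.51 ± 0.35 (SE) (adjusted p = 0.116). Ncoa7, a nuclear receptor coactivator, had NM_172495 at 11.9, 10.003 and 10.7 and 59.1, 48.97 and 44.9 (log2 fold change 2.22 ± 0.36 (SE), adjusted p = 0.0462). Rasgrf1 rose through its full-length form NM_011245, at 3.895, 2.56 and 5.13 and 87.9, 41.7 and 40.97 (adjusted p = 0.0395), whereas the short NM_001039655 was at 6.49, 3.58 and 2.41 and 4.83, 6.61 and 3.53, with overlap (adjusted p = 0.823).

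**Figure D5:**
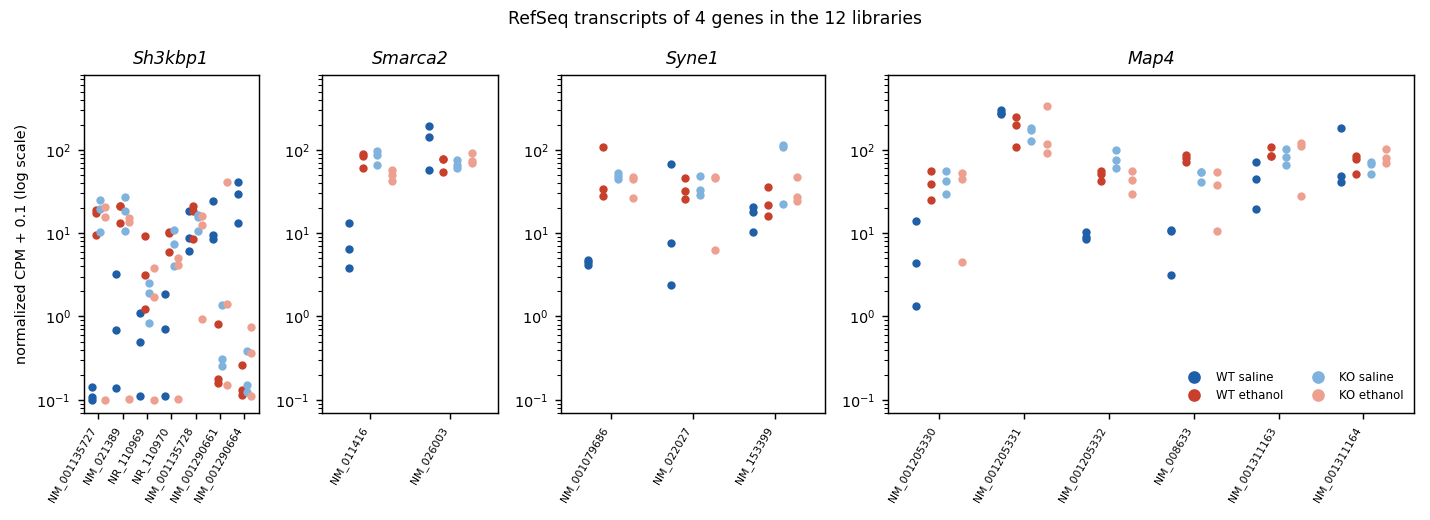
Normalized CPM plus 0.1 (log scale) of each tested RefSeq transcript of Sh3kbp1, Smarca2, Syne1 and Map4 in the 12 libraries, coloured by group. NM_001135727 and NM_001290664 of Sh3kbp1 lie in opposite order in WT saline and WT ethanol, and NM_011416 of Smarca2 is higher in each WT ethanol library than in each WT saline library.

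Exchanges between transcripts of 1 gene were also seen in A830010M20Rik, Epb41l1, Abi2, Rapgef1 and Anks1b. In Rapgef1, an exchange factor for Rap1, NM_001039087 was at 6.54, 7.59 and 21.4 in saline and 86.3, 90.3 and 59.5 in ethanol, and NM_054050 at 58.3, 100.3 and 53.7 and 33.5, 19.2 and 18.2. Their log2 fold changes were 2.69 ± 0.53 (SE) and -1.57 ± 0.41 (SE) (adjusted p = 0.0841 and 0.115). In Abi2, a subunit of the WAVE actin complex, NM_001198571 was at 14.7, 7.09 and 34.3 and 78.6, 111 and 80.5, and NM_001198570 at 527, 371 and 230.4 and 48.7, 108 and 142. In A830010M20Rik the pair NM_001007574 and NM_001168557 has the same length, 2439 bases. The first was at 35.001, 17.6 and 29.02 and 75.98, 92.3 and 88.4, and the second was at 55.9, 37.2 and 23.8 in saline and at 1.33 or lower in ethanol. The counts of such forms are estimates, because forms of 1 gene share exons.

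The p53 KO libraries are given beside these values without a test of likeness, because the WT saline libraries would enter both sides. Cit was at 26.2, 13.3 and 20.9 in KO saline and 18.2, 10.1 and 19.6 in KO ethanol, and Gabbr2 at 94.8, 94.5 and 148 and 88.5, 72.1 and 98.96. Ppp1r14b was at 71.2, 63.4 and 80.9 and 82.1, 92.2 and 93.4, and Hivep3 at 22.7, 32.5 and 45.01 and 21.7, 3.35 and 18.6. Oprk1 was at 7.92, 7.76 and 7.75 in KO saline and 4.67, 3.35 and 7.51 in KO ethanol, below every WT ethanol library. KO ethanol 12 had the fewest counts of the 12 libraries, 719735, and 3 counts there are a level of 5.01. Its values of 3.35 for Hivep3 and Oprk1 lie under that level and rest on few counts. Within the KO mice the ethanol over saline log2 fold change was -0.27 for Cit, -0.37 for Gabbr2, -0.48 for Oprk1 and 0.31 for Ppp1r14b. In the test of the difference between the ethanol effects of the genotypes (edgeR), 0 of 14716 genes passed an adjusted p under 0.05, with a lowest adjusted p of 0.14, 1629 genes under 0.30 and 2234 at an unadjusted p under 0.05.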

How the data were processed

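Total RNA of somatosensory cortex was sequenced in 12 libraries, and the 6 WT ones were compared (3 a group, by the genotype and treatment labels). Per the study's methods the authors filtered reads by quality, aligned them to mm10 (Bowtie2, run by TopHat) and used Partek Flow to count RefSeq transcripts (versions not given in the sources used here). The authors deposited estimated counts per transcript, unscaled and with fractions, and RPKM values whose sorted values nearly coincide between libraries, a quantile normalization. Counts of the 35840 transcripts were summed over 24427 gene symbols (59 transcripts under 25 symbols turned into dates were left out of the sums), rounded, filtered with filterByExpr and tested in edgeR 4.0.16 (R 4.3.3) by the quasi-likelihood test with TMM factors, 1 mean a group over all 12 libraries and two-sided Benjamini-Hochberg adjustment. Transcripts were tested likewise. The SE was derived from the F statistic. Lengths and GC content came from GENCODE models on that assembly for 97.8% of genes.

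The 4 groups share no library number, so none were paired. Reads of a gene and of near-identical copies cannot be told apart. The alternatives were DESeq2 1.42.0, no TMM or RLE factors, count minimums of 1 in any or 10 in every library, the 6 WT libraries alone, the letter (L or P) that opens a library name as covariate or the 2 L libraries left out, a length and GC offset (splines with 5 degrees of freedom), limma 3.58.1 on log2 RPKM with a pseudocount of 1 or 0.1, and each library left out in turn. WT ethanol 5 alone, and the WT libraries alone without the L library, were added after seeing the data. The scripts were tested on simulated data. The members, gene lists and tests were chosen with earlier results of these data known.

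Genes were named by a rule. It covered the 12 genes in each direction with the smallest p among those at an adjusted p under 0.30, with a mean of at least 5 normalized CPM and no overlap of the WT groups, up to 4 members of each of 27 gene lists by p, every gene with a transcript at an adjusted p under 0.05, the 6 genes with the firmest opposite transcripts, and Trp53, Sik2, Dmtf1 and Map4. Not every gene covered is reported, and the cell type markers and Y-linked genes named as library checks lie partly outside the rule and were chosen after their values were seen. Each of the 12 marker lists held 6 genes.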

Additional observations from a re-analysis of the deposited data

How the results depend on the processing

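No paired analysis was possible because the WT saline and WT ethanol libraries share no library number. The number of genes at an adjusted p under 0.30 (3298) became 2072 with at least 10 counts in every library, 39 with the 6 WT libraries alone, 353 and 183 in limma on log2(RPKM + 1) and log2(RPKM + 0.1), 8287 without the 2 L libraries, 6279 in the WT libraries without the L library and 0 with WT ethanol 5 alone. The number at 0.05 (11) became 487 in DESeq2, 2 without TMM factors, 21 with at least 1 count in any library, 0 with the 6 WT libraries alone (1846 at an unadjusted p under 0.05 in edgeR), 0 with the name letter as covariate (2626 unadjusted), 0 and 2 in limma, 3211 without the L libraries, 326 in the WT libraries without the L library and 0 with WT ethanol 5 alone (623 unadjusted). Transcripts at 0.30 (4677) became 2398, 1223, 1837, 1583, 10704, 7531 and 0 in the order of the first sentence on genes, and transcripts at 0.05 (12) became 1245 in DESeq2, 6 without TMM factors, 21 with at least 1 count, 0 with the 6 WT libraries alone, 5 with the name letter, 3 and 5 in limma, 3095 without the L libraries and 0 with WT ethanol 5 alone. With 1 library left out the counts ran from 72 to 7295 and from 0 to 1146 for genes, and from 289 to 8825 and from 0 to 269 for transcripts. The low ends at 0.30 came without WT ethanol 4 and the high ends without WT saline 3. Of the alternatives tried, the calls of all 3298 genes kept their sign in DESeq2, without TMM and with RLE factors. The cause of these moves was not tested.

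The sign of Trp53 turned without TMM (0.25), with at least 10 counts (0.12), with the name letter (0.31), without the L libraries (0.53), with the length and GC offset (0.26), in the WT libraries without the L library (0.56) and with single libraries left out (-0.53 to 0.54). That of the Sh3kbp1 sum turned in limma (-0.21 and -0.22) and with WT saline 13 left out (-0.05 to 0.60), that of the Smarca2 sum ran from -0.23 to 0.50 and that of Rasgrf1 NM_001039655 from -0.08 to 0.78.

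List medians turned without TMM in the stress response (0.27), alcohol enzyme (0.35) and cell division (0.29) lists, and with the length and GC offset in the stress response (0.10), inflammatory (0.12), histone (0.11) and mural (-0.16) lists. They turned with WT ethanol 5 alone for endothelial (-0.36), mural (-1.31), choroid plexus (-1.06) and hippocampal (-0.62) markers, and for mural markers also without the L libraries (-0.29) and in the WT libraries without the L library (-0.26). With single libraries left out, medians ran from -0.22 to 0.45 (astrocytes), -1.18 to 0.78 (mural), -0.41 to 3.21 (choroid plexus), -0.44 to 1.89 (hippocampus), -0.47 to 0.11 (inflammatory) and -0.29 to 0.13 (cell division). A separate calculation of the inflammatory median without WT ethanol 4 gave -0.51, below that range. The reason for the gap was not tested. Of the other values, 1926 for named genes and 422 for transcripts kept sign and side of 0.30, and 545 and 40 kept the sign and lost the call. WT saline 3, with 1953154 counts, limits what low genes can show.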
